A study of Rattus norvegicus with 9 samples.

Results

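The genes examined here encode the core transcription factors of the epithelial-mesenchymal transition (EMT), Snai1, Snai2, Twist1, Twist2, Zeb1, Zeb2, Prrx1, and Foxc2, together with Vim. Vim is not a transcription factor but the gene of vimentin, the intermediate filament protein by which mesenchymal cells are usually recognized. They were taken by symbol from the table of read counts, where all 9 were found among 35362 genes. The counts come from mesenchymal stem cells (ASCs) that were grown from the groin subcutaneous (SASCs), perirenal (PASCs), and epididymal (EASCs) depots of male, 6-week-old Sprague Dawley rats and harvested at passage 3, with 3 samples in each group. No cells were treated and no gene was altered, so the groups differ by fat depot alone as far as the labels say. The cells were selected by adherence to plastic after collagenase digestion and were grown in wells of culture plates. Whether the 3 samples of a group are separate rats or only separate wells is not given in the sources used here, so the p-values measure the spread between these samples, which may be technical.

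EMT is the program by which epithelial cells lose their junctions and polarity and become motile mesenchymal cells, and it operates in gastrulation, in neural crest migration, and in fibrosis and cancer. Factors of the Snail and ZEB families are zinc finger proteins that bind E-boxes, short DNA motifs of the form CANNTG, and repress epithelial genes such as the E-cadherin gene Cdh1. Twist factors are basic helix-loop-helix proteins that pair with E proteins. Mesenchymal cells such as ASCs express many of these factors in their ordinary state, and several of them take part in the development of connective tissue and in the choice between fibroblast, bone, and fat cell fates.

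Total counts ranged from 17591916 to 30299032 per sample, and 3 counts corresponded to 0.104 to 0.159 CPM, counts relative to the library size after scaling by the TMM method, a limit that covers counting error only. The share of ribosomal RNA among the counts was 10.4% to 15.5% for SASCs, 22.4% to 32.9% for PASCs, and 15.9% to 40.3% for EASCs. Surface markers of mesenchymal stem cells were present in each group, with a summed level of 4151 to 4279 CPM for SASCs, 3786 to 3962 for PASCs, and 4963 to 5033 for EASCs, and of the 10 markers listed, Ly6al was at 0 in every sample. Levels were compared by edgeR's quasi-likelihood test, with p-values adjusted by the Benjamini-Hochberg method over the 14770 genes that passed a filter on low counts, and all 9 genes of the set passed it. DEGs are those genes whose adjusted p-value was under 0.05 and whose levels differed more than 2-fold. Of the 9 surface markers tested, 2 were DEGs with higher and 2 with lower levels in EASCs, beside 13.6% and 14.2% of all genes, and 0 and 3 in PASCs, beside 12% and 14.9%. At an adjusted p-value under 0.05 alone, 4 were higher and 4 lower in either group, beside 69.7% of all genes in EASCs and 69.2% in PASCs in either direction. Pdgfra had 1543 CPM for SASCs against 278 in PASCs and 235 in EASCs, and Dpp4 had 13.02 against 1.44 and 0.845. Eng had 59.97 CPM for SASCs against 89.8 in PASCs and 204 in EASCs, and Itgb1, named after its values were seen, had 1046 against 1814 and 2951. EASCs and PASCs were compared with the same SASCs samples, so these comparisons are not independent of each other. The RNA is from bulk cultures, in which fewer cells of a type and less RNA per cell cannot be told apart.

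In the deposited table, whose positions are on rn6 by the study's methods and by scaffold names of that build, the genes span chr3:164274710-164279199 for Snai1, chr11:90404421-90406730 for Snai2, chr6:53401241-53403235 for Twist1, chr9:98924134-98968510 for Twist2, chr17:54658463-54678819 for Zeb1, chr3:29857417-29985930 for Zeb2, chr13:81147038-81215560 for Prrx1, chr19:53044379-53047081 for Foxc2, and chr17:80882715-80891200 for Vim. The counts refer to the whole gene and were not separated by transcript.

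The promoters of 5 of the factors are shown because the factors themselves bind E-boxes and because the paralogues Zeb1 and Zeb2 differed in their order across depots while Twist1 and Twist2 shared one. Each is the stretch of 250 bases before the annotated gene start in RefSeq's assembly GRCr8, written 5′ to 3′ on the strand of the gene, with every CANNTG in capitals. The positions are chr3:176667226-176667475 on the plus strand for Snai1, chr17:56810654-56810903 on the minus strand for Zeb1, chr3:49754324-49754573 on the minus strand for Zeb2, chr6:56402059-56402308 on the plus strand for Twist1, and chr9:99821992-99822241 on the plus strand for Twist2.
Snai1: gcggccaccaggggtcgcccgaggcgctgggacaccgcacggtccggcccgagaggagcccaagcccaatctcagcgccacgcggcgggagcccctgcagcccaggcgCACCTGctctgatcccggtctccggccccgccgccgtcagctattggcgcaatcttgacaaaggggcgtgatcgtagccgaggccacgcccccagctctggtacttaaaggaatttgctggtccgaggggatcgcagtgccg
Zeb1: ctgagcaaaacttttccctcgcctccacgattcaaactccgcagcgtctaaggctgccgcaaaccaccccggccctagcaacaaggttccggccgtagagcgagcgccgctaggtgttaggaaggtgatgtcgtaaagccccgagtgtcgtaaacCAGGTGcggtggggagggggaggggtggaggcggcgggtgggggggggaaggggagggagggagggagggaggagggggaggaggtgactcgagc
Zeb2: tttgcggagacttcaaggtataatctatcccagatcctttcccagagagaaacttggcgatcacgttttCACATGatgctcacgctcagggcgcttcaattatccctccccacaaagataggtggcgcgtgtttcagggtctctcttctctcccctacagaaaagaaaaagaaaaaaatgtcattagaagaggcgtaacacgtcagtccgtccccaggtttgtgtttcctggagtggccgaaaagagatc
Twist1: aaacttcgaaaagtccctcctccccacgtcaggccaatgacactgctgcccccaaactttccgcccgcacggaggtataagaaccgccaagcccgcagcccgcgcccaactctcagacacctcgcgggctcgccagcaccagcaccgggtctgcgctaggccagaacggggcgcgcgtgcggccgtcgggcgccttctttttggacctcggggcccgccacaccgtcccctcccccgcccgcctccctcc
Twist2: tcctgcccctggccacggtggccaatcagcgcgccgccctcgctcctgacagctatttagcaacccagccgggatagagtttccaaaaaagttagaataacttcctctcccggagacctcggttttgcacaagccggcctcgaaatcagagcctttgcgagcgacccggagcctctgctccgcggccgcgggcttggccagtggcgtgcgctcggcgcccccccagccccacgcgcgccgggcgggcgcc

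The Snai1 promoter held CACCTG, the E-box preferred by Snail and ZEB proteins, beginning at base -142 from the start. The Zeb1 promoter held CAGGTG, the same motif read on the other strand, at -95, and the Zeb2 promoter held CACATG at -181. CANNTG reads the same on both strands, so one search covers both. Neither Twist promoter held a CANNTG, nor did those of Prrx1 and Vim, and Snai2 and Foxc2 had no entry among the 7 promoters matched. Of all 33469 promoters of this length in the table, 65.5% held a CANNTG and 15.9% held CACCTG or CAGGTG. A match describes the letters of the sequence and does not show binding.

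Per length of transcript, Vim had the highest level of the set in every group. Its FPKM (CPM per kilobase of the gene model in the table) was 1606 ± 64.3 (SD, n = 3) in SASCs, 3037 ± 89.7 in PASCs, and 2951 ± 47.0 in EASCs. Among the transcription factors, Prrx1 came first, at 185 ± 13.4, 149 ± 4.24, and 107 ± 4.98 FPKM in the same order of groups. Prrx1 was followed in every group by Snai1, Twist1, and Twist2, in this order and with no overlap between neighbours. Snai1 had 45.9 ± 1.07 FPKM in SASCs, 51.5 ± 0.617 in PASCs, and 52.1 ± 4.01 in EASCs. Below Twist2 the order depended on the depot. In SASCs, Zeb2 (18.3 ± 1.53 FPKM) and Zeb1 (16.7 ± 1.89) overlapped and were followed by Snai2 (11 ± 0.624) and Foxc2 (0.246 ± 0.0271). In PASCs, Zeb1 (14.2 ± 0.260) lay above Zeb2 (7.57 ± 0.579), Snai2 (4.64 ± 1.75), and Foxc2 (1.93 ± 0.180), without overlap. In EASCs, Zeb2 (11 ± 0.623) lay above Zeb1 (8.36 ± 1.23), and Foxc2 (3.28 ± 0.718) and Snai2 (2.95 ± 0.610) overlapped. These levels depend on the gene models: those of Snai2 (807 bases), Zeb1 (3069), Snai1 (1599), and Foxc2 (2703) have lengths that are multiples of 3, while the model of Zeb2 is 13306 bases long. The comparisons between depots for one gene do not use the length.

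**Figure D1:**
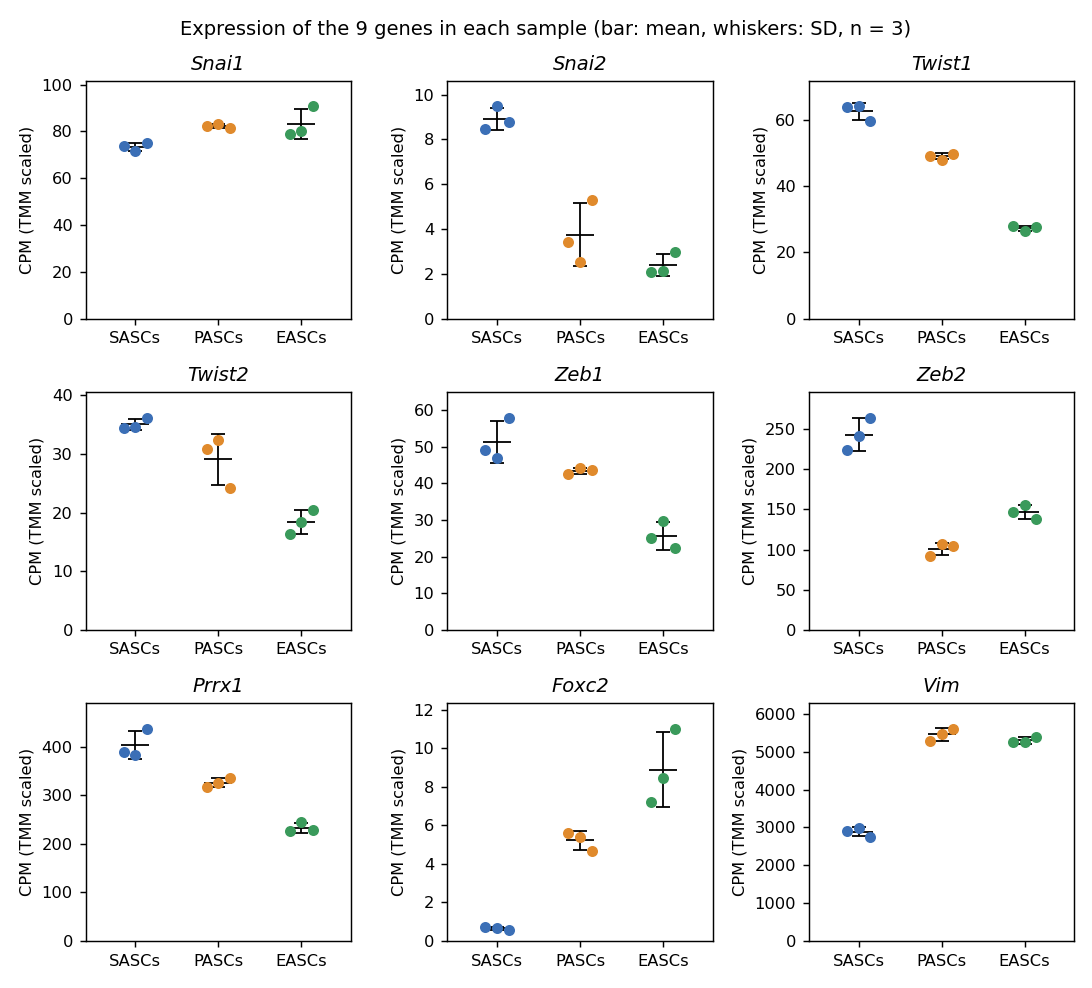
Levels of the 9 genes in CPM after TMM scaling (vertical axes, each from 0) in the 3 samples of SASCs, PASCs, and EASCs (horizontal axes); points are samples, bars are means, and whiskers are SDs. Twist1, Twist2, Zeb1, and Prrx1 step down from SASCs to PASCs to EASCs, Zeb2 is lowest in PASCs, Snai2 and Foxc2 run in opposite directions, and Vim and Snai1 are lowest in SASCs, although Snai1 is highest there by total counts without TMM.

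In both visceral groups all 9 genes differed from SASCs at an adjusted p-value under 0.05, with Snai1 (lower by total counts without TMM), Foxc2, and Vim higher and the other 6 lower, but most differences were below a fold change of 2. Against SASCs, 3 of the 9 were DEGs in EASCs (Snai2 and Twist1 lower, Foxc2 higher) and 3 in PASCs (Snai2 and Zeb2 lower, Foxc2 higher). Of all genes tested, 27.8% were DEGs in EASCs and 26.9% in PASCs, so at this threshold and scaling these counts were not far from the background. By total counts without TMM the set had 7 DEGs in EASCs, beside 32.3% of all genes. At a fold change above 1.5 the set had 8 DEGs in EASCs and 4 in PASCs against SASCs, beside 43.4% and 43.4% of all genes, and 5 between EASCs and PASCs, beside 13.2%. An adjusted p-value under 0.05 was reached by 69.7% of all genes in EASCs and 69.2% in PASCs. For each of the 9 genes the visceral samples lay entirely to one side of the SASCs samples, as was the case for 72.1% of all genes in EASCs and 71.6% in PASCs. Between EASCs and PASCs none of the 9 was a DEG by edgeR or by DESeq2, against 7.39% of all genes (5.19% higher and 2.2% lower), while 7 of the 9 had an adjusted p-value under 0.05 (5 lower in EASCs and 2 higher), against 30.7% of all genes, and 7 had an unadjusted p-value under 0.05. The samples of EASCs and PASCs were separate for 6 of the 9 genes (41.2% of all genes) and overlapped for Snai1, Snai2, and Vim. The median log2 fold change of the set was -0.79 in EASCs and -0.26 in PASCs against SASCs and -0.49 between EASCs and PASCs, where the medians of all genes were 0.01, -0.01, and -0.01.

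**Figure D2:**
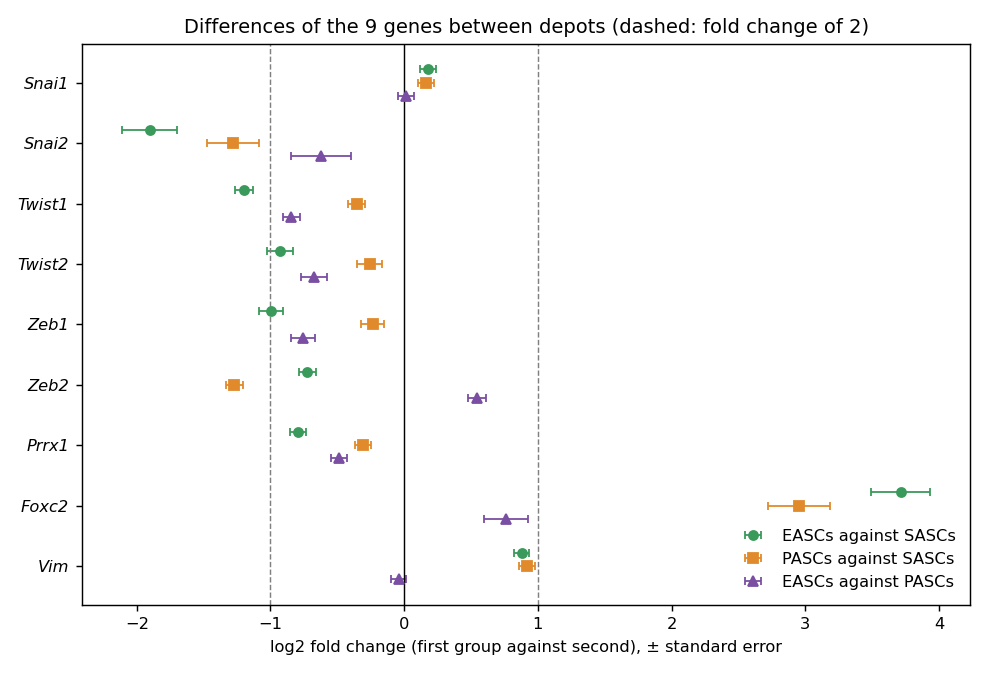
Log2 fold change (horizontal axis) of each of the 9 genes (vertical axis) for EASCs against SASCs, PASCs against SASCs, and EASCs against PASCs; points are edgeR estimates, whiskers are standard errors, and dashed lines mark a fold change of 2. Snai2 and Foxc2 lie beyond the dashed lines in both comparisons with SASCs, at -1.90 and 3.71 in EASCs, and no gene does so between EASCs and PASCs.

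The Snail family was divided. Snai1, the repressor that acts early in EMT and is rapidly degraded as a protein, had nearly the same level in every depot. Its CPM was 73.8, 71.6, and 74.9 in the samples 1, 2, and 3 of SASCs against 82.4, 83.3, and 81.3 in PASCs and 79.1, 80.0, and 90.6 in EASCs. All 6 visceral samples lay above the SASCs samples, and EASCs and PASCs overlapped. The log2 fold change was 0.18 ± 0.06 (SE) in EASCs (adjusted p = 0.00926), and in PASCs it was 0.16 ± 0.06 (adjusted p = 0.0164), both below the fold change of DEGs. This small difference depended on the scaling, since by total counts without TMM it was -0.22 in EASCs and -0.16 in PASCs. It also lost its adjusted p-value in EASCs without replicate 3 (0.12, adjusted p = 0.0865, edgeR), and in PASCs without replicate 2 of SASCs (0.15, adjusted p = 0.0667) or of PASCs (0.16, adjusted p = 0.0518). Between EASCs and PASCs the log2 fold change of Snai1 was 0.02 ± 0.06 (adjusted p = 0.878).

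Snai2, or Slug, a regulator of neural crest migration and of fat cell formation, was a DEG in both visceral groups. Its CPM was 8.48, 9.47, and 8.79 in SASCs against 3.40, 2.54, and 5.30 in PASCs and 2.09, 2.11, and 2.95 in EASCs. The SASCs samples stood well above the others, and sample 3 was the highest of its group in PASCs and in EASCs. The log2 fold change was -1.90 ± 0.20 in EASCs (adjusted p = 4.40e-09), with SASCs 3.74-fold higher, and -1.28 ± 0.19 in PASCs (adjusted p = 1.61e-06), with SASCs 2.43-fold higher. Between EASCs and PASCs the samples overlapped, and the difference of -0.62 ± 0.22 (adjusted p = 0.0339) rested on single samples: without replicate 3 of PASCs it was -0.32 (adjusted p = 0.292), and without replicate 1 or 2 of EASCs it was -0.54 in both cases (adjusted p = 0.119 and 0.115). Snai2 counts were low, with 50 to 66 reads per sample in EASCs against 180 to 244 in SASCs.

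Twist1 and Twist2, which maintain progenitors of bone and connective tissue in an undifferentiated state, moved together. Twist1 had a CPM of 63.8, 64.0, and 59.7 in SASCs against 49.1, 47.9, and 49.7 in PASCs and 27.8, 26.3, and 27.6 in EASCs. The 3 groups were separate, and replicates differed little. Twist1 was a DEG in EASCs (-1.20 ± 0.06, adjusted p = 2.51e-15) and was lower by less in PASCs (-0.35 ± 0.06, adjusted p = 1.39e-05). For EASCs against PASCs the value was -0.84 ± 0.07 (adjusted p = 4.04e-11).

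Twist2 had a CPM of 34.5, 34.6, and 36.2 in SASCs against 30.9, 32.3, and 24.2 in PASCs and 16.3, 18.4, and 20.4 in EASCs. The groups were again separate and in the same order as for Twist1, with sample 3 of PASCs closest to EASCs. The log2 fold change was -0.93 ± 0.10 in EASCs (adjusted p = 2.07e-09) and -0.67 ± 0.10 between EASCs and PASCs (adjusted p = 3.49e-06). In PASCs it was -0.26 ± 0.09 (adjusted p = 0.0149), and without replicate 3 of PASCs it was -0.15 (adjusted p = 0.142). Twist2 overlaps LOC103690572 on the other strand, a gene with 417 counts over all samples against 5978 for Twist2, and reads of the pair could not be told apart if strand was not used in counting.

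The ZEB factors, which repress epithelial genes and are held in check by the miR-200 family, were both lower in the visceral groups but in different orders. Zeb1 had a CPM of 49.0, 47.0, and 57.9 in SASCs against 42.6, 44.2, and 43.6 in PASCs and 25, 29.7, and 22.3 in EASCs. SASCs were highest and EASCs lowest, with no overlap. In EASCs the log2 fold change was -0.995 ± 0.0880 (adjusted p = 9.75e-11), and because SASCs were 1.99-fold higher, Zeb1 lay just below the fold change of DEGs. It was a DEG there when the size factors of DESeq2 or DESeq2 itself were used, or when replicate 1 or 2 of SASCs or replicate 2 of EASCs was left out, which raised the number of DEGs in the set from 3 to 4. By total counts without TMM, Zeb1 (-1.37), Twist2 (-1.33), Prrx1 (-1.18), and Zeb2 (-1.11) were all DEGs in EASCs as well. Without replicate 3 of EASCs it was Twist2 that became a DEG there, with a log2 fold change of -1.01. In PASCs the log2 fold change was -0.24 ± 0.08 (adjusted p = 0.0152) and depended on single samples, at -0.14 (adjusted p = 0.148) without replicate 3 of SASCs and -0.22 (adjusted p = 0.05004) without replicate 1 of PASCs. Between EASCs and PASCs it was -0.76 ± 0.09 (adjusted p = 1.03e-07).

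Zeb2, also known from neural crest development, had a CPM of 224, 241, and 264 in SASCs against 91.9, 106, and 104 in PASCs and 147, 155, and 139 in EASCs. The groups were separate, and here PASCs and not EASCs were the lowest. Zeb2 was a DEG in PASCs (-1.27 ± 0.07, adjusted p = 9.24e-16), where SASCs were 2.41-fold higher. In EASCs it was lower by -0.73 ± 0.06 (adjusted p = 1.03e-10), and EASCs exceeded PASCs by 0.54 ± 0.07 (adjusted p = 1.72e-07).

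Prrx1, a homeobox factor of limb and craniofacial mesenchyme and a marker of fibroblast progenitors, had a CPM of 390, 384, and 438 in SASCs against 318, 325, and 336 in PASCs and 226, 246, and 228 in EASCs. The order was that of the Twist genes and Zeb1, without overlap. The log2 fold change was -0.79 ± 0.06 in EASCs (adjusted p = 2.12e-12), -0.31 ± 0.06 in PASCs (adjusted p = 3.73e-05), and -0.49 ± 0.06 between EASCs and PASCs (adjusted p = 1.62e-07). Twist1, Twist2, Zeb1, and Prrx1 were thus the 4 of the 9 genes whose samples separated with SASCs above PASCs and PASCs above EASCs, an order found in 5.49% of all genes tested. Zeb2 separated with SASCs above EASCs and EASCs above PASCs, an order found in 5.73% of all genes. These shares describe the table and are not a test of the set, whose members were chosen by name.

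Foxc2 was higher in both visceral groups, where 6 of the other factors were lower. It encodes a forkhead protein of lymphatic vessel and mesoderm development that is also known in fat for favouring a brown-like program. Its counts were 21, 16, and 12 in SASCs against 146, 144, and 88 in PASCs and 172, 208, and 246 in EASCs, corresponding to a CPM of 0.730, 0.679, and 0.586, of 5.59, 5.38, and 4.66, and of 7.20, 8.43, and 11. The groups were far apart, with SASCs low but above the limit of 3 counts in each sample, and sample 3 of EASCs was the highest. Foxc2 was a DEG in EASCs (3.71 ± 0.22, adjusted p = 2.03e-14, 13.1-fold) and in PASCs (2.95 ± 0.23, adjusted p = 8.21e-12, 7.74-fold). Between EASCs and PASCs the log2 fold change was 0.76 ± 0.16 (adjusted p = 0.000646). The order with EASCs above PASCs and PASCs above SASCs, without overlap, was found in 7.01% of all genes. Per length, Foxc2 remained the least abundant of the transcription factors in PASCs, and in EASCs its level overlapped that of Snai2.

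Vim had a CPM of 2915, 2980, and 2756 in SASCs against 5285, 5474, and 5606 in PASCs and 5254, 5248, and 5397 in EASCs. The visceral samples were close to each other and all above SASCs. The log2 fold change was 0.88 ± 0.06 in EASCs (adjusted p = 2.96e-13, 1.84-fold) and 0.92 ± 0.06 in PASCs (adjusted p = 1.14e-13, 1.89-fold), both below the fold change of DEGs. The value for EASCs against PASCs was -0.04 ± 0.06 (adjusted p = 0.644). Vim thus differed in direction from the 6 factors that were lower in the visceral groups.

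The balance of paralogues was also taken as the ratio of counts within each sample, a value that needs no scaling between libraries. Snai1 had 8.70, 7.56, and 8.53 reads per read of Snai2 in SASCs against 24.2, 32.8, and 15.4 in PASCs and 37.8, 38.0, and 30.7 in EASCs. The ratio was lower in each SASCs sample than in any visceral sample, and EASCs and PASCs overlapped. On the log2 scale the difference was 2.1 ± 0.12 (SE) between EASCs and SASCs and 1.48 ± 0.32 between PASCs and SASCs. Each had p = 0.10 in the two-sided exact permutation test, the smallest p that 3 against 3 samples allow, and 0.18 after adjustment over the 9 ratio comparisons.

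Zeb2 had 4.56, 5.13, and 4.56 reads per read of Zeb1 in SASCs against 2.16, 2.41, and 2.38 in PASCs and 5.87, 5.22, and 6.22 in EASCs. The PASCs samples lay below all others, and EASCs lay just above SASCs. The log2 difference was -1.04 ± 0.08 between PASCs and SASCs, 0.28 ± 0.09 between EASCs and SASCs, and 1.32 ± 0.09 between EASCs and PASCs, each with exact permutation p = 0.10 and adjusted p = 0.18. For Twist1 and Twist2 the ratio was 1.78 ± 0.118 (SD, n = 3) in SASCs, 1.71 ± 0.303 in PASCs, and 1.49 ± 0.187 in EASCs, and the groups overlapped in all 3 comparisons, with exact permutation p of 0.20 (EASCs against SASCs), 0.60 (PASCs against SASCs), and 0.40 (EASCs against PASCs). The log2 difference of the Twist ratio was -0.26 ± 0.12 in EASCs and -0.07 ± 0.15 in PASCs against SASCs.

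**Figure D3:**
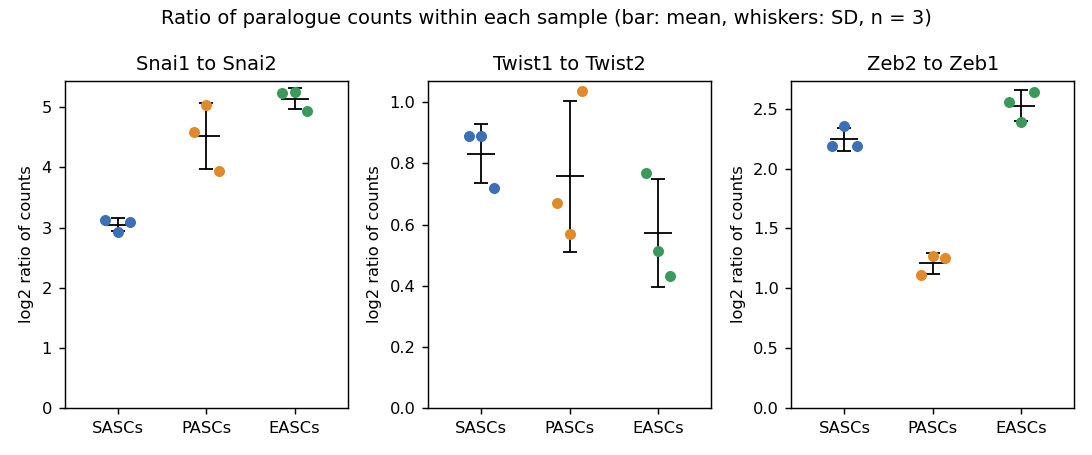
Log2 ratio of counts (vertical axes, from 0) for Snai1 to Snai2, Twist1 to Twist2, and Zeb2 to Zeb1 in each sample of the 3 groups (horizontal axes); points are samples, bars are means, and whiskers are SDs. The Snail ratio is lowest in SASCs (mean 3.04), the ZEB ratio is lowest in PASCs (mean 1.21), and the Twist ratio overlaps between all groups.

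Other factors described in EMT moved in both directions. Of 18 listed, 14 were tested, and against SASCs 4 were higher and 4 lower as DEGs in EASCs, and 5 higher and 6 lower in PASCs, where DEGs made up 13.6% (higher) and 14.2% (lower) of all genes in EASCs and 12% and 14.9% in PASCs. Scx, or scleraxis, a tendon factor of the Twist-related helix-loop-helix class, rose from 0.205 ± 0.157 CPM (SD, n = 3; 11, 2, and 3 counts) in SASCs to 7.26 ± 0.204 in PASCs and 3.47 ± 0.444 in EASCs. Its log2 fold changes were 5.02 and 3.96 and moved to 5.93 and 4.87 without replicate 1 of SASCs, the only sample above 3 counts there. Sox9, the cartilage factor, rose from 7.14 ± 0.887 CPM to 34.5 ± 3.89 (2.27) and 47.1 ± 0.614 (2.73). The forkhead gene Foxq1 fell from 1.95 ± 0.519 CPM to 0.307 ± 0.0727 in PASCs and 0.0596 ± 0.103 in EASCs, where its counts were 0, 0, and 4 and its mean was below the level of 3 counts. The homeobox gene Gsc fell from 4.46 ± 0.298 CPM to 2.21 ± 0.645 in PASCs, a call lost without replicate 3 of SASCs or replicate 2 of PASCs, and to 0.931 ± 0.859 in EASCs, where the log2 fold change moved from -2.28 to -3.27 without replicate 3 of EASCs.

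The paralogues of the set did not all follow it. Foxc1 had the same direction as Foxc2, at 2.38 ± 0.397 CPM in SASCs, 11.3 ± 2.92 in PASCs, and 11.3 ± 1.15 in EASCs, with log2 fold changes of 2.21 and 2.23, and was a DEG in both. Prrx2 had a value of 0.28 ± 0.07 in PASCs (adjusted p = 0.000458) and 0.01 ± 0.07 in EASCs (adjusted p = 0.929), and by total counts without TMM of -0.05 (adjusted p = 0.8003) and -0.39 (adjusted p = 0.0285). Snai3 had 9, 10, and 10 counts in SASCs against 2, 0, and 4 in PASCs and 14, 10, and 9 in EASCs. It was a DEG with lower levels in PASCs than in SASCs (adjusted p = 0.0118), a call lost without replicate 2 of PASCs, and than in EASCs (adjusted p = 0.0138), a call lost without replicate 1 or 2 of PASCs or replicate 1 of EASCs, and with PASCs under the level of 3 counts no fold change is given.

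Of 8 tested partners of the Twist proteins, among the E proteins, the Id inhibitors, and the Hand factors, 2 were DEGs in EASCs and 1 in PASCs, beside 27.8% and 26.9% of all genes. Id4 was higher in EASCs (1.06, from 5.30 ± 0.790 to 11.2 ± 2.24 CPM) and Hand2 was lower in both, from 0.859 ± 0.0862 CPM to 0.118 ± 0.0929 in PASCs and 0.0558 ± 0.0967 in EASCs, both under the level of 3 counts. The call of Id4 in EASCs was lost without replicate 3 of SASCs or of EASCs, with a lowest value of 0.94, and by total counts without TMM, where the value was 0.64 (adjusted p = 0.00382). By total counts 0 of the 8 were higher and 2 lower in EASCs, beside 9.13% and 23.2% of all genes under that scaling, and 0 and 3 in PASCs, beside 8.54% and 21.5%, with Tcf4 among the lower ones in both (-1.16 and -1.16). The E protein gene Tcf4 was lower by -0.75 ± 0.11 in EASCs (adjusted p = 4.98e-07), with a value of -0.83 ± 0.11 in PASCs (adjusted p = 9.39e-08), Tcf3 was higher by 0.27 and 0.26, and Tcf12 had values of -0.15 (adjusted p = 0.0579) and 0.00 (adjusted p = 0.967). Of the Id genes, whose products keep E proteins from binding DNA, Id3 was higher by 0.36 in EASCs and 0.17 in PASCs, while Id1 and Id2 were lower in PASCs, at -0.62 and -0.76. In EASCs, Id1 was higher by 0.25 (adjusted p = 0.0196) and Id2 had a value of -0.08 (adjusted p = 0.532). By total counts without TMM, the values of Tcf3 were -0.12 and -0.07, those of Id3 -0.04 and -0.16, and that of Id1 in EASCs -0.16, so none of these increases held under that scaling. It moved the median of all genes as well, to -0.39 in EASCs and -0.33 in PASCs.

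Upstream of the factors, genes of TGF-β signaling, a main inducer of EMT, were called in both directions. Of 14 genes tested, 6 were upregulated and 3 downregulated as DEGs in EASCs, beside 13.6% and 14.2% of all genes, and 2 and 2 in PASCs, beside 12% and 14.9%, a share near the background. Smad7, named after its values were seen, was among the 6 with a log2 fold change of 1. Its call was lost without replicate 3 of SASCs or replicate 2 or 3 of EASCs. The ligand gene Tgfb3 rose from 36.0 ± 0.927 CPM in SASCs to 141 ± 1.8 in PASCs (log2 fold change 1.96) and 520 ± 6.35 in EASCs (3.85). Tgfb2 rose from 22.4 ± 1.56 to 99.2 ± 6.0 CPM in EASCs (2.14) and had 30.1 ± 1.59 in PASCs (0.42). The receptor gene Tgfbr2 fell from 1512 ± 47.9 CPM to 289 ± 10.6 in PASCs (-2.39) and 295 ± 6.43 in EASCs (-2.36), and the coreceptor gene Tgfbr3 from 594 ± 29.5 CPM to 117 ± 8.06 (-2.35) and 85.7 ± 4.51 (-2.79). Tgfbr1, named after its values were seen, was in contrast higher, by 1.16 ± 0.08 in EASCs, where it was a DEG, and by 0.56 ± 0.08 in PASCs. By total counts without TMM, the DEGs of this list in EASCs numbered 5, of which 2 were higher and Tgfbr1 was not one (0.79), and in PASCs 1 was higher and 4 lower.

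Downstream, epithelial genes that the factors are known to repress were partly higher and partly lower in the visceral groups, while the defining ones were barely detected. Of 21 listed, 12 could be tested, and 8 were upregulated and 0 downregulated as DEGs in EASCs, beside 13.6% and 14.2% of all genes, and 6 and 1 in PASCs, beside 12% and 14.9%. By total counts without TMM the numbers in EASCs were 7 and 1. With TMM scaling and an adjusted p-value under 0.05 alone, 9 were higher and 2 lower in EASCs, beside 69.7% of all genes in either direction. In PASCs 8 were higher and 3 lower, beside 69.2%. Jup and Pals1, named after their values were seen, were lower in both groups. Jup had 69.4 ± 3.15 CPM in SASCs, 24.1 ± 0.579 in PASCs (-1.53), where it was a DEG, and 43.3 ± 2.69 in EASCs (-0.68). Pals1 had values of -0.56 in PASCs and -0.43 in EASCs. Cdh1, the gene of E-cadherin, had counts of 3, 3, and 0 in SASCs, 6, 0, and 0 in PASCs, and 0 in each sample of EASCs, too few to test. Epcam had 3, 0, and 1 counts in SASCs against 0, 0, and 1 in PASCs and 27, 9, and 10 in EASCs and was not tested either. Cdh3, the gene of P-cadherin, had 2, 3, and 3 counts in SASCs against 933, 971, and 777 in PASCs and 1571, 1578, and 1513 in EASCs, and with SASCs at or under the level of 3 counts no fold change is given. The keratin gene Krt7 rose from 1.76 ± 0.179 CPM to 126 ± 3.15 in PASCs and 61.8 ± 1.53 in EASCs, and the desmosome gene Pkp2 from 0.0789 ± 0.0714 CPM (4, 0, and 2 counts) to 12.2 ± 0.144 and 6.06 ± 0.760. Krt18 was at 0 in SASCs, against 0.608 ± 0.0826 CPM in PASCs and 2.24 ± 0.564 in EASCs, which was at least 4.82-fold and 17.8-fold higher than the group mean of 3 counts per sample. The 12 genes tested had to reach a minimal count in at least some samples, so the share that was upregulated among them does not describe the 9 left out. Krt18, Cdh3, Pkp2, Ocln, and Dsp had 0 to 14 counts per sample of SASCs and passed this filter through the visceral groups. Ocln and Dsp were named after their values were seen. The numbers of upregulated genes are thus no support for a change of the list.

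Krt18 and its partner Krt8 are also markers of mesothelial cells, which line the visceral fat depots. The 12 mesothelial markers listed together had 34.3 to 34.9 CPM per SASCs sample, 105 to 112 per PASCs sample, and 136 to 149 per EASCs sample, and of the 9 tested, 7 were upregulated and 1 downregulated as DEGs in EASCs, beside 13.6% and 14.2% of all genes, and 8 and 1 in PASCs, beside 12% and 14.9%. Krt18, Upk3b, and Bnc1, the last named after its values were seen, had 0 to 6 counts per sample of SASCs and passed the filter on low counts through the visceral groups, so these numbers do not describe the markers left out and are no support for a change of the list. Wt1, a mesothelial and visceral mesenchymal factor, rose from 1.91 ± 0.0881 CPM to 36.0 ± 1.22 in PASCs and 53.7 ± 2.1 in EASCs, and Upk3b from 0.0325 ± 0.0564 CPM to 2.38 ± 0.341 and 2.30 ± 0.259. Upk3b had 0, 0, and 2 counts in SASCs, under the level of 3 counts. Lrrn4 rose from 3.63 ± 0.654 CPM to 19.6 ± 2.58 in PASCs and 36.0 ± 2.61 in EASCs, and Msln, the mesothelin gene, from 12.5 ± 0.261 CPM to 36.2 ± 1.15 and 38.5 ± 2.52. Msln was named after its values were seen. Cldn15, likewise named after its values were seen, went the other way and was the marker downregulated in both groups. It fell from 13.9 ± 0.633 CPM to 5.47 ± 0.460 in PASCs (-1.33) and 3.99 ± 0.659 in EASCs (-1.80). Krt19 and Muc16 were at or near 0 in every group, at no more than 0.151 CPM on average. The part of mesothelial cells in the values of the epithelial genes and of the EMT factors was not tested.

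Other cell type markers moved with the depots as well. Markers of adipocytes summed to 101 to 110 CPM for SASCs, 23.3 to 24.1 for PASCs, and 12.0 to 12.8 for EASCs, and markers of melanocytes and Schwann cells to 74.3 to 77.6, 15.1 to 17.7, and 6.07 to 7.02 CPM, with Dct and Tyr at 0 in every sample. Both sums had the order of Twist1, Twist2, Zeb1, and Prrx1, and their part in these values was not tested. Markers of leukocytes summed to 53.0 to 59.2 CPM for SASCs, 127 to 133 for PASCs, and 188 to 201 for EASCs, with Cd3e at 0. Endothelial markers summed to 55.1 to 56.4, 13.9 to 17.1, and 37.9 to 41.1 CPM, lowest in PASCs as for Zeb2. Not all of them followed the sum. Tek, named after its values were seen, was a DEG with higher levels in both visceral groups. It had 2.55 CPM in SASCs, 8.30 in PASCs, and 8.08 in EASCs. In EASCs against SASCs, Cdh5 and Vwf had edgeR adjusted p of 0.561 and 0.928. Muscle markers summed to 10.5 to 12.1, 27.7 to 29.6, and 183 to 198 CPM, nearly all of it Des, with Myf5, Pax7, and Myog at 0. Myod1 went the other way in EASCs, where it was a DEG with lower levels. It had 8, 4, and 8 counts in SASCs, 15, 3, and 10 in PASCs, and 0 in each sample of EASCs. The part of these cell types was likewise not tested.

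Of the mesenchymal genes that rise in EMT, 7 of 22 were upregulated and 3 downregulated as DEGs in EASCs, with the same numbers in PASCs. Of all genes, 13.6% were higher and 14.2% lower in EASCs and 12% and 14.9% in PASCs, so the 3 lower genes were near the background. The smooth muscle genes Tagln and Acta2 rose the most of these in EASCs, Tagln from 74.2 ± 4.71 CPM in SASCs to 1892 ± 132 in PASCs (log2 fold change 4.67) and 3583 ± 172 in EASCs (5.59), and Acta2 from 55.7 ± 1.96 to 911 ± 15.1 (4.03) and 2200 ± 28.9 CPM (5.30). Tnc, the gene of the matrix protein tenascin C, had log2 fold changes of 2.17 and 4.01 in the same groups. Dcn, the gene of the matrix proteoglycan decorin, fell from 6880 ± 155 CPM to 218 ± 10.7 in PASCs (-4.98) and 301 ± 16.6 in EASCs (-4.52). Cdh2, the gene of N-cadherin, was higher in EASCs by 0.97 ± 0.06 (adjusted p = 3.55e-14) and lower in PASCs by -0.53 ± 0.06 (adjusted p = 1.56e-08), and became a DEG in EASCs without replicate 3 of SASCs (1.01).

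The list of intermediate filament genes other than Vim also held Plec, the gene of a linker protein. Of its 7 genes tested, none was downregulated against SASCs, and 3 in EASCs and 5 in PASCs were upregulated as DEGs. Of all genes, 14.2% and 14.9% were downregulated and 13.6% and 12% upregulated in these groups, so with 7 genes the absence of lower ones was near the background. Des, the gene of desmin, rose from 11 ± 0.721 CPM in SASCs to 27.9 ± 0.893 in PASCs and 193 ± 8.57 in EASCs. Nes, the gene of nestin, rose from 1.84 ± 0.433 CPM to 5.45 ± 0.655 and 16 ± 3.09. Lmnb1, the gene of lamin B1, rose to its highest level in PASCs, from 12.3 ± 1.84 CPM to 53.3 ± 4.02, with 35.2 ± 1.66 in EASCs. Prph was a DEG in PASCs (2.19 ± 0.40, adjusted p = 3.00e-05) and had a value of 0.78 ± 0.45 in EASCs (adjusted p = 0.119), where it was a DEG without replicate 2 of SASCs (1.27).

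**Figure D4:**
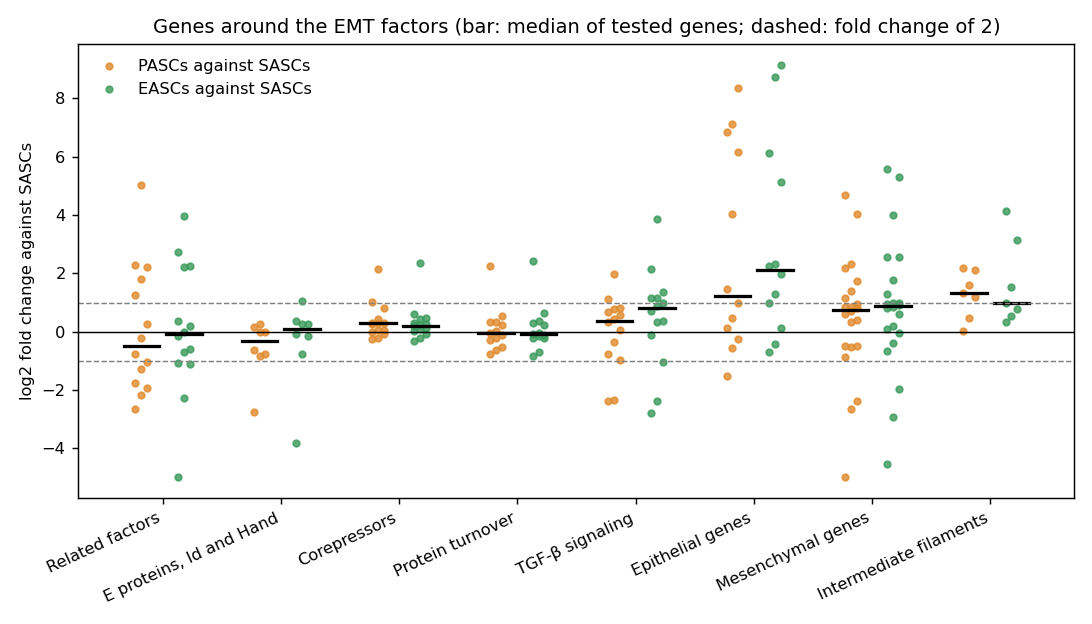
Log2 fold change against SASCs (vertical axis) of the tested genes in 8 lists (horizontal axis) for PASCs and EASCs; each point is a gene, black bars are list medians, and dashed lines mark a fold change of 2. TGF-β genes spread to both sides, while corepressors and turnover genes lie within 1.03 of 0 except for 1 gene each above 2. The points of Krt18, Cdh3, and Pkp2, with at most 4 counts in any sample of SASCs, depend on the small prior count that edgeR adds.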

How the data were processed

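RNA of rat ASCs from 3 fat depots was sequenced with paired-end reads, which the authors trimmed with cutadapt and FastX-Toolkit and aligned with TopHat. The paper's methods name the genome rn6, and the submitters' processing notes name rn5. The deposited positions are on rn6, since the table holds 253 genes on the Y chromosome or its scaffolds, which rn5 lacks. The authors deposited whole-number counts of reads for 35362 genes in 9 samples, not normalized. The tool that counted reads, its use of strand, and its treatment of reads shared by genes are not given in the sources used here. The methods give 6 replicates per group, of which 3 were analysed here, assigned to groups by their labels.

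From the deposited counts, edgeR 4.0.16 (R 4.3.3) computed TMM factors of 0.740 to 1.23, and filterByExpr left 14770 genes. One model of 3 groups, without a block, was fitted by glmQLFit and tested by glmQLFTest, and the common biological coefficient of variation was 0.0685. The study's own test, DEGseq, was not used because it takes no account of spread between replicates. The fit was checked on simulated counts. CPM uses the TMM-scaled library, and FPKM divides it by the gene length in the table. Replicates of a group differed by more than counting noise (chi-square per degree of freedom of 5.93 to 267), so none was taken for a library deposited again.

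The genes of the set and all gene lists were chosen with earlier results of these data known, and the lists are described by counts and medians, without a set test. All 9 genes of the set were named, and from each list at most 4 DEGs with the largest change against SASCs, Cdh1, Cdh2, Epcam, E protein, Id, and paralogue genes whatever their values, and the 2 genes most correlated with each gene of the set. Epcam, Cdh1, and other genes that failed the filter are given as counts. Alternatives were DESeq2 1.42.0, its size factors, total counts, no filter, removal of 7 rRNA genes, only the samples compared, the replicate number as a block, a fold change of 1.5, and each replicate left out in turn. Promoters came from RefSeq's GRCr8 and are in another build than the positions of the deposited table.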

Additional observations from a re-analysis of the deposited data

How the results depend on the processing

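Of 432 log2 fold changes of the 9 genes under the alternatives, 418 kept their direction and their side of an adjusted p-value of 0.05, 10 kept only the direction, and 4 reversed. By total counts without TMM, the number of DEGs in the set rose from 3 to 7 in EASCs against SASCs (1 higher and 6 lower), where 32.3% of all genes were DEGs (9.13% higher and 23.2% lower), and Snai1 was -0.22 in EASCs and -0.16 in PASCs against SASCs and -0.064 between EASCs and PASCs. That setting moved the median of all genes to -0.39, -0.33, and -0.08 in the same comparisons, and the share of higher genes among all DEGs from 48.8% to 28.3% in EASCs and from 44.7% to 28.5% in PASCs. With a fold change of 1.5 in place of 2, the DEGs of the set numbered 8 in EASCs against SASCs, 4 in PASCs against SASCs, and 5 in EASCs against PASCs, beside 43.4%, 43.4%, and 13.2% of all genes. When single replicates were left out, the log2 fold change of Snai1 between EASCs and PASCs ranged from -0.044 to 0.051, and the log2 difference of the Twist1 to Twist2 ratio in PASCs from -0.21 to 0.021, above 0 without replicate 2 of PASCs. Snai2 between EASCs and PASCs had an adjusted p of 0.0581 when only these samples were fitted. With the replicate block, 3, 3, and 0 genes of the set were DEGs in EASCs against SASCs, PASCs against SASCs, and EASCs against PASCs, and no call changed. Deviations of samples that share a number had correlations of -0.0348 to 0.0380, so the numbers did not pair the samples. Of 816 numbers of DEGs in the gene lists, 775 stayed within 1.5 times. Snai2 and Foxc2 had the fewest counts, 50 and 12 in their lowest samples.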

Other observations

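Genes that act with or on the EMT factors were also counted, beside 27.8% of all genes that were DEGs in EASCs and 26.9% in PASCs against SASCs. Of 14 genes of corepressors that Snail and ZEB proteins recruit, 1 was a DEG in EASCs and 2 in PASCs against SASCs, all upregulated. Ajuba, the gene of a LIM protein that binds the Snail repressor domain, rose from 19.9 ± 0.623 CPM (SD, n = 3) in SASCs to 88.8 ± 4.72 in PASCs (log2 fold change 2.16) and 101 ± 3.08 in EASCs (2.35). Ezh2, the methyltransferase gene of Polycomb complex PRC2, rose from 10.5 ± 0.334 to 21.5 ± 0.835 CPM in PASCs (1.03) and had 15.9 ± 0.739 in EASCs (0.60). Of 13 tested genes that govern the phosphorylation and turnover of these proteins, Pak1, a kinase gene, was the only DEG against SASCs after TMM scaling, at 32.7 ± 1.26 CPM in SASCs, 156 ± 7.73 in PASCs (2.25), and 174 ± 5.25 in EASCs (2.41). By total counts without TMM this list had 3 DEGs in EASCs (1 higher and 2 lower) and 2 in PASCs (1 higher and 1 lower), and Ezh2 was not a DEG in PASCs (0.71). Of 14 factors of the epithelial state, 5 were tested, and Grhl1 was the only DEG, with 65, 75, and 44 counts in SASCs against 9, 11, and 5 in PASCs (-2.85) and 3, 6, and 0 in EASCs, where its mean was under the level of 3 counts and no fold change is given.

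The genes whose levels were most like those of each gene of the set were taken by Pearson's correlation of log2(CPM + 1) over the 9 samples, among 8566 genes with a mean CPM of at least 10. All genes were measured in the same 9 libraries, which form 3 groups, so these values describe similar depot patterns and carry no test. For Twist1 they were Tcf7l2 (r = 0.998), which had mean CPMs of 35.1 in SASCs, 24.5 in PASCs, and 10.7 in EASCs, and Kitlg (r = 0.997), the gene of KIT ligand. For Zeb2 they were Phactr2 (0.992) and Plce1 (0.990), for Prrx1 Itpr3 (0.992) and Etnk1 (0.991), and for Foxc2 Rem1 (0.998) and Prep (0.998). For Vim they were Grk6 (0.998) and Rhoa (0.998), the latter at 400.2 CPM in SASCs, 756 in PASCs, and 736 in EASCs. Snai2 was most like Cr1l (0.989) and Secisbp2 (0.987), Zeb1 like Plekha8 (0.981) and Imp3 (0.979), and Twist2 like LOC680835 (0.978) and Hdac5 (0.977). Snai1, with its small differences, had the lowest values, for Cluh (0.964) and Ttll12 (0.954).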
